A study of Homo sapiens with 24 samples.

Results

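The proteasome is described here through the mRNAs of its subunits in 4 human cancer cell lines. The members are 37 genes listed by symbol out of 61533 genes in each deposited count table, and all 37 were found and passed the filter on low counts in every line. They comprise the 7 alpha and 7 constitutive beta subunits of the 20S core (PSMA1 to PSMA7 and PSMB1 to PSMB7), the 3 inducible catalytic subunits PSMB8, PSMB9 and PSMB10, the 3 caps of the 11S type PSME1, PSME2 and PSME3, the 6 ATPases of the 19S regulatory particle (PSMC1 to PSMC6) and 11 of its non-ATPase subunits (PSMD genes).

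Cells of the lines Cal27, A375, Fadu and Hth83, all of WT genotype per the labels, received Piezo-CAP for 60 s or none (0 s) after seeding in 6-well plates overnight, in DMEM or, for Fadu, MEM with 10% serum, and RNA was sequenced at 24 h. Piezo-CAP denotes a piezoelectric source of cold plasma, an ionised gas that stays near room temperature. Each line had 3 CAP and 3 untreated libraries, 24 in 8 groups, and the series title names chemotherapy and immune checkpoint blockade as the treatments to which plasma is meant to sensitise head and neck cancer. Whether the 3 libraries of a group are separate cultures is not in the labels, and p-values below thus measure only the spread between these libraries, which may be technical. Cal27 is a line from a tongue carcinoma, Fadu from a hypopharyngeal carcinoma and A375 from a melanoma, and the name Hth83 belongs to a line from an anaplastic thyroid carcinoma.

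The proteasome degrades proteins tagged with ubiquitin. Its 20S core is a barrel of alpha rings, which form the gate, around beta rings, of which PSMB5, PSMB6 and PSMB7 carry the proteolytic sites, and the 19S particle binds the tagged protein, removes the tag and unfolds the chain with its ring of ATPases. Interferon induces PSMB8, PSMB9 and PSMB10, which take the places of PSMB5, PSMB6 and PSMB7 in newly built cores (the immunoproteasome), and it induces PSME1 and PSME2, which form the PA28 cap. These changes favour peptides suited to MHC class I. Genes of the constitutive subunits are known to be raised together by the transcription factor NFE2L1 when proteasome activity is limiting.

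Libraries held 27.9 M to 49.5 M counts. In every group 0 of 5 leukocyte markers reached 10 CPM (counts scaled to library size), and their summed level was 0.157 to 8.3 CPM. Of 5 squamous markers, TP63, KRT5 and SFN were above 10 CPM in Cal27, Fadu and Hth83. KRT14 was at 5.52 CPM in untreated Cal27, and DSG3 at 6.32 CPM in untreated Hth83. In A375, 0 of 5 squamous markers reached 10 CPM, and 2 of 5 melanocyte markers did, SOX10 and MITF. The melanocyte genes PMEL, MLANA and TYR were at 1.11, 0.887 and 0.0543 CPM in untreated A375. PMEL and MLANA were higher in untreated Fadu, at 4.71 and 2.67 CPM. In untreated Hth83 cells 1 of 6 thyroid markers, PAX8, reached 10 CPM, at 137 ± 1.03 CPM (SD, n = 3), while NKX2-1 was at 0, TG at 0.0437 ± 0.0386 CPM and TP63 at 416 ± 13 CPM. PAX8 was at 23.6 ± 2.22 CPM in untreated Cal27, 5.99 ± 0.495 in Fadu and 1.39 ± 0.515 in A375, and Cal27 had 2 of 6 thyroid markers at 10 CPM or more. The summed squamous markers were lower with CAP in Fadu (2005 to 2258 CPM, against 4999 to 5204 CPM untreated) and in Cal27 (741 to 773 against 1250 to 1263 CPM). In Hth83 the sums were 964 to 1056 CPM with CAP and 952 to 980 CPM untreated. KRT5 made up most of the Fadu sum (mean 3833 CPM untreated, 1210 with CAP). TP63, KRT14 and DSG3 were also lower there, while SFN was higher (251 untreated, 293 with CAP). The part of these markers in the results below was not tested. In bulk RNA, fewer cells of a kind and less RNA per cell cannot be told apart.

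Promoter sequence is shown first because the inducible members are defined by their response to interferon. The interferon-stimulated response element was searched on both strands as GAAA, any 2 bases and GAAA again in RefSeq windows of GRCh38.p14 from 250 bases before to 50 after each start, which matched 32 of the 37 members. Such a match was present in 4.38% of 27305 genes, in 4 of the 5 inducible members (PSMB8, PSMB10, PSME1 and PSME2) and in 2 of the 27 other members with a window (PSMA4 and PSMB4). The stretches below run 5′ to 3′ on the gene's strand, from 70 bases before to 20 after the start, with the match in capitals.
PSMB8: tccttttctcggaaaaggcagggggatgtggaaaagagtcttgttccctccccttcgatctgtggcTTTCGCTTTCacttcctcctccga
PSMB10: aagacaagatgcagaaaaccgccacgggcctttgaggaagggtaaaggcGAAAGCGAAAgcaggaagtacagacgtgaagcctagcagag
PSME1: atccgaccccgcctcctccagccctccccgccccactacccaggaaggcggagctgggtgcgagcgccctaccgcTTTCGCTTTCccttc
PSME2: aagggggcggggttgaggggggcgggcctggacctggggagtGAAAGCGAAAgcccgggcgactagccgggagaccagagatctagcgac

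These stretches lie at chr6:32844028-32844117 (minus strand), chr16:67936831-67936920 (minus), chr14:24136124-24136213 (plus) and chr14:24146591-24146680 (minus). All 4 matches were the same 10 bases, GAAAGCGAAA, read on the gene's strand in PSMB10 and PSME2 and on the opposite strand in PSMB8 and PSME1. They began at position -4 (PSMB8), -21 (PSMB10), 6 (PSME1) and -28 (PSME2) from the start, and the same 10 bases were found in 0.0997% of 35116 windows. PSMB9 had no match in its window. It lies at chr6:32844136-32859585 (plus strand) in GENCODE 29 on GRCh38, with an end that overlaps PSMB8 at chr6:32840717-32844703 (minus), and PSME1 and PSME2 are near each other at chr14:24136158-24138967 (plus) and chr14:24143362-24147570 (minus), whereas PSMB10 lies at chr16:67934502-67937087 (minus). PSMB9 is transcribed away from TAP1, a subunit of the transporter that carries peptides to MHC class I, and the starts in the RefSeq table lie 488 bases apart. This RefSeq start of PSMB9 lies inside the longer GENCODE span. The window of TAP1 held overlapping matches 354 bases from that PSMB9 start, shown here on the strand of TAP1 at chr6:32853785-32853874 (minus).
TAP1: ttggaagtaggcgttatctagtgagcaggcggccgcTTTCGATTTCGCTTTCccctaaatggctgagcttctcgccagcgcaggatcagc

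The antioxidant response element, bound by NFE2L1 and NFE2L2, was searched as TGACNNNGC in the same way and was present in 16.1% of genes. It was found in 7 of the 27 other members with a window (PSMA4, PSMB3, PSMC4, PSMC5, PSMD1, PSMD3 and PSMD12) and in PSMB9, PSME1 and PSME2 among the inducible ones. The examples below show it in constitutive members from the core, the ATPase ring and the lid, at chr17:38752611-38752700, chr17:63827651-63827740 and chr17:39980737-39980826, all on the plus strand.
PSMB3: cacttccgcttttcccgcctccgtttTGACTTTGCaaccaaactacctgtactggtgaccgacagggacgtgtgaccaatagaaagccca
PSMC5: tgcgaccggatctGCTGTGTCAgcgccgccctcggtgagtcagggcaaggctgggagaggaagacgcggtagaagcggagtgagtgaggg
PSMD3: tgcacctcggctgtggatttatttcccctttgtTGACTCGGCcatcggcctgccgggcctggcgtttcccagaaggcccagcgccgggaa
A match describes the letters in these windows only, and binding was not measured.

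Untreated levels, given as CPM per kb of exon so that genes of different length can be compared, were highest in Cal27 for 28 of the 37 members and lowest in A375 for 20. The median over the members was 53.3 CPM per kb in Cal27, 26.2 in A375, 31.7 in Fadu and 31.6 in Hth83. In the fit of all 24 libraries each of the 37 members differed between the untreated lines (edgeR F test, adjusted p under 0.05), which 93.2% of all genes tested also did. Between Cal27 and A375, 34 members were higher and 2 lower in Cal27, where 76.8% of genes differed in either direction. Cal27 was higher than Fadu for 30 and lower for 3 (69.6% of genes), and higher than Hth83 for 32 and lower for 4 (68.7%). A375 was lower than Fadu for 27 and higher for 9 (75.6%), and lower than Hth83 for 22 and higher for 12 (71.7%). Fadu was higher than Hth83 for 20 and lower for 13 (69.4%).

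**Figure D1:**
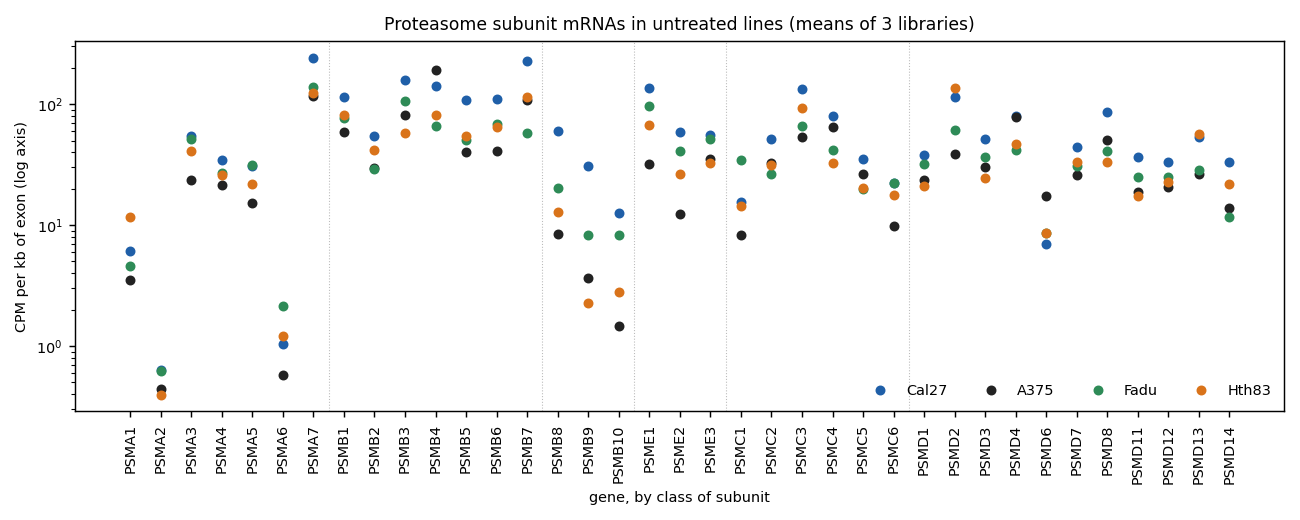
Level of each member in the untreated lines, as CPM per kb of exon (log axis), with 1 point per line, the mean of 3 libraries, and dotted lines between classes of subunit. Cal27 is the highest line for 28 of 37 members, and PSMA1, PSMA2 and PSMA6 lie below the other alpha subunits in every line.

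The inducible members were highest in Cal27 and next in Fadu. PSMB8, the inducible counterpart of PSMB5, stood at 59.9 ± 4.14 CPM per kb (SD, n = 3) in untreated Cal27, 20.2 ± 1.04 in Fadu, 12.8 ± 0.58 in Hth83 and 8.36 ± 0.553 in A375. PSMB9 stood at 30.9 ± 0.897 in Cal27, 8.23 ± 0.546 in Fadu, 3.65 ± 0.0369 in A375 and 2.29 ± 0.327 in Hth83, an order in which A375 and Hth83 change places. PSMB10 stood at 12.6 ± 0.769 in Cal27, 8.25 ± 0.571 in Fadu, 2.78 ± 0.202 in Hth83 and 1.45 ± 0.107 in A375. Neighbours in these orders all differed in edgeR, and the largest adjusted p was 2.72e-06, for PSMB10 in Cal27 against Fadu.

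The caps PSME1 and PSME2 followed the order Cal27, Fadu, Hth83, A375. PSME1 stood at 135 ± 4.51, 96.2 ± 4.19, 67.3 ± 3.6 and 32.1 ± 1.19 CPM per kb in these lines, and PSME2 at 59.2 ± 3.95, 41.2 ± 0.623, 26.4 ± 1.37 and 12.4 ± 0.191. Among the constitutive catalytic subunits PSMB5 stood at 107 ± 2.82 in Cal27, 54.6 ± 2.74 in Hth83, 50.8 ± 1.61 in Fadu and 40.1 ± 1.59 in A375, and Hth83 and Fadu were barely apart (adjusted p = 0.0496). PSMB6 did not pass between Fadu (68.5 ± 1.88) and Hth83 (64.8 ± 5.58; adjusted p = 0.168), nor PSMB7 between Hth83 (115 ± 2.1) and A375 (109 ± 2.66; adjusted p = 0.0874). PSMB7 in Cal27 was at 228 ± 5.24 and in Fadu at 58.1 ± 1.14.

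Among the alpha subunits, 3 had far fewer counts than their partners in the same ring. PSMA1, PSMA2 and PSMA6 stood at 0.397 to 11.7 CPM per kb, whereas the median of the other alpha subunits was 22.6 to 44.6. Each shares 14.1% to 24.7% of its exon bases with an overlapping gene on the same strand, and those genes held 0 to 21 counts per library. Why these counts are low was not tested, and the results for these members rest on fewer reads.

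The share of all counts that fell on the 37 members amounts to scaling by library size. On that scale the median log2 fold change with CAP over all genes was not 0. It was 0.082 in Cal27, -0.093 in A375, 0.114 in Fadu and 0.051 in Hth83, so the shares include shifts common to all genes. It was 0.705%, 0.707% and 0.686% in the untreated libraries of Cal27 and 0.588%, 0.589% and 0.589% with CAP. In A375 it was 0.457%, 0.454% and 0.448% untreated and 0.593%, 0.57% and 0.578% with CAP. In Fadu it was 0.494%, 0.495% and 0.493% untreated and 0.57%, 0.562% and 0.567% with CAP, and in Hth83 0.466%, 0.451% and 0.445% untreated and 0.613%, 0.595% and 0.621% with CAP. The untreated and CAP libraries did not overlap in any line, and the share was lower with CAP in Cal27 and higher in the other lines.

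In Cal27 the proteasome genes fell and in A375 and Hth83 they rose, while in Fadu the 5 inducible members fell and most other members that passed rose. Of the 37 members, 0 rose and 33 fell in Cal27 (edgeR, adjusted p under 0.05), with a median log2 fold change of -0.35, where 23.2% of the genes tested fell and 21.9% rose. In A375, 33 rose and 0 fell with a median of 0.40, where 25.7% of genes rose and 24.8% fell. In Hth83, 30 rose and 0 fell with a median of 0.28, where 25.9% of genes rose and 24.2% fell. In Fadu, 17 rose, 9 fell and 11 did not pass, with a median of 0.08, where 26.3% of genes rose and 27% fell. Counts by class of subunit below are to be read against these shares of all genes. The median over all genes tested was between -0.02 and 0.01 in the 4 lines. On the deposited TPM, where the median over all genes in Cal27 moved to 0.20, 18 members fell and 2 rose in Cal27 (limma on log2(TPM + 1)), with a median of -0.11.

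**Figure D2:**
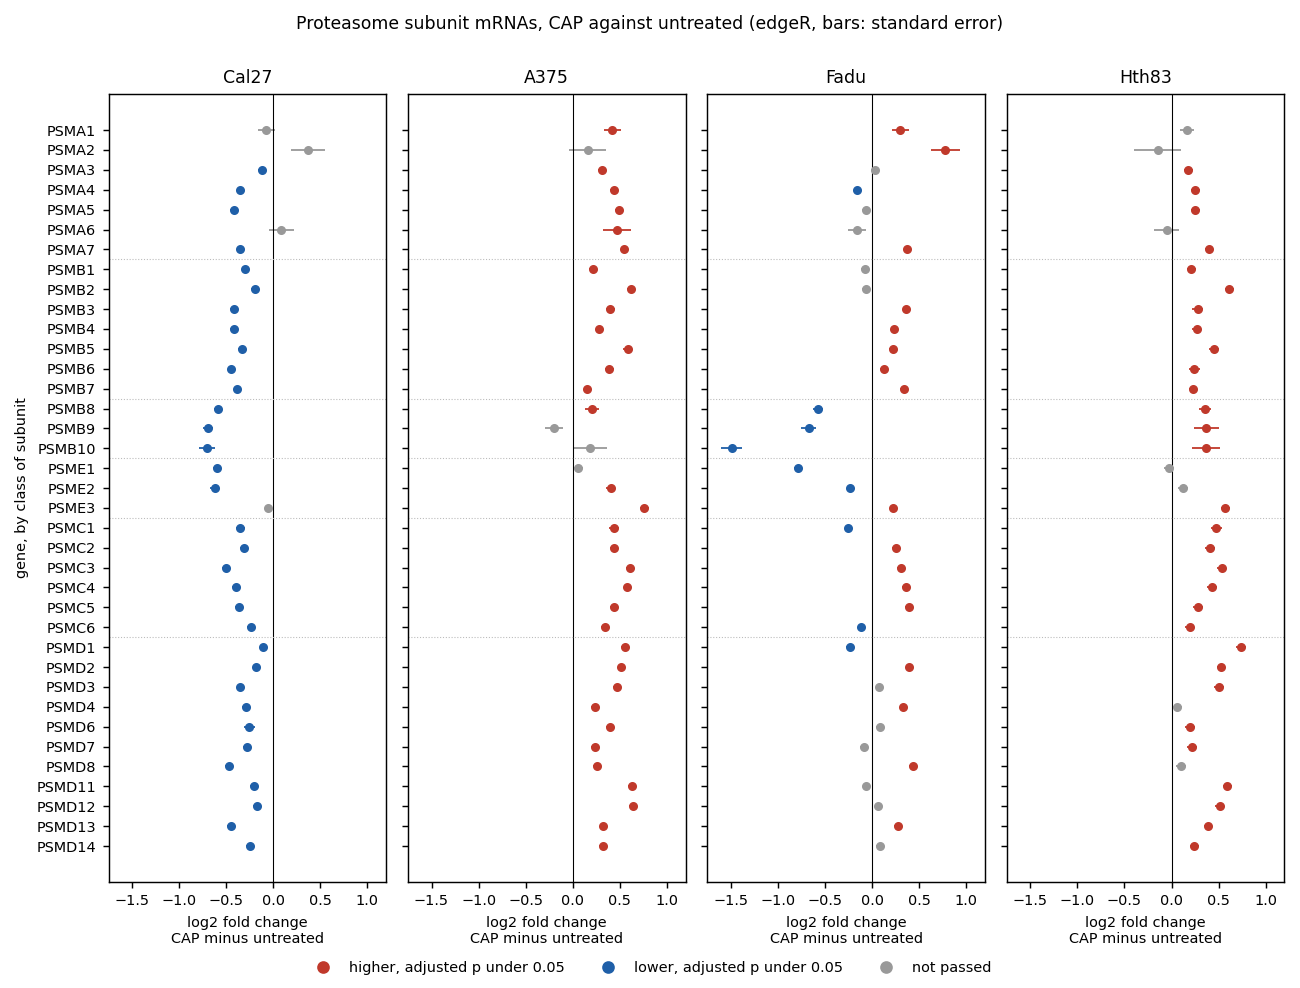
Log2 fold change (CAP minus untreated) of each of the 37 members in the 4 lines, with standard errors, from edgeR on 3 against 3 libraries, with dotted lines between classes. Members lie left of 0 in Cal27 and right of 0 in A375 and Hth83, with the exceptions in grey, and in Fadu PSMB8, PSMB9, PSMB10, PSME1 and PSME2 lie left of 0 while 17 members in red lie to the right.

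Calls of single members were also compared across the lines. No member passed in the same direction in all 4 lines (0 of 37). This is near the share of all genes, 2.64%, and is not a result particular to the members. In each of the 4 lines 17 members passed (16.4% of genes). In single lines, 45.1% of all genes passed in either direction in Cal27, 50.5% in A375, 53.3% in Fadu and 50.1% in Hth83. The untreated and CAP libraries did not overlap for 35 of the 37 members in Cal27, 34 in A375, 30 in Fadu and 32 in Hth83. Over all genes tested they did not overlap for 9158 of 17371, 11353 of 19604, 11223 of 19152 and 9876 of 17279 in these lines. A fall in Cal27 with a rise in A375 and Hth83 was called for 27 members, against 6.33% of the 14240 genes tested in all 4 lines. Of these 27, 12 also rose in Fadu, a pattern of 3.76% of genes (PSMA7, PSMB3, PSMB4, PSMB5, PSMB6, PSMB7, PSMC2, PSMC3, PSMC4, PSMC5, PSMD2 and PSMD13). The 9 members that fell in both Cal27 and Fadu, as 6.48% of genes did, were the 5 inducible ones with PSMA4, PSMC1, PSMC6 and PSMD1. In Fadu the calls of PSMC6 and PSMB6 were each lost in 6 of 17 alternatives, and that of PSMA4 with library size as the scale (adjusted p = 0.161). In Cal27 the call of PSMD1 was lost in 10 of 17. Those of PSMB5, PSMC1, PSMC2, PSMC6 and PSMD2 in Cal27 were lost in 3 each, and those of PSMA7 and PSMC5 in 1 each. The A375 call of PSMB7 was lost in 3.

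In the alpha ring, 4 of 7 members fell in Cal27, 6 rose in A375, 3 rose and 1 fell in Fadu, and 4 rose in Hth83, and all of the calls left out in Cal27 and Hth83 belong to PSMA1, PSMA2 and PSMA6. PSMA7, an alpha subunit with many counts, shows the pattern library by library. In Cal27 it had 402, 417 and 377 CPM untreated and 316, 312 and 312 CPM with CAP, a log2 fold change of -0.35 ± 0.04 (SE; adjusted p = 2.01e-09). In Fadu it had 262, 257 and 261 CPM untreated and 333, 326 and 351 CPM with CAP (0.37 ± 0.03; adjusted p = 1.35e-17), and it rose by 0.55 ± 0.04 in A375 and 0.40 ± 0.05 in Hth83. No group overlapped its partner in these 4 lines. CPM values in these comparisons are scaled within a line and are not levels to be set across lines.

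In the constitutive beta ring all 7 members fell in Cal27 and all 7 rose in A375 and in Hth83, while 5 rose and 0 fell in Fadu. PSMB5, the chymotrypsin-like subunit, had 177, 174 and 183 CPM in untreated Cal27 and 146, 134 and 143 CPM with CAP (log2 fold change -0.34 ± 0.04, adjusted p = 4.53e-08). In A375 it had 77.5, 74.7 and 72.6 CPM untreated and 120.1, 107 and 111 CPM with CAP (0.59 ± 0.05, adjusted p = 6.81e-12). Neither pair of groups overlapped, and the CAP libraries were the low ones in Cal27 and the high ones in A375.
In Fadu PSMB5 had 98.9, 93.6 and 93.9 CPM untreated and 114, 108 and 113 CPM with CAP (0.23 ± 0.04, adjusted p = 3.04e-06), and in Hth83 94.9, 86.7 and 89.2 CPM untreated and 125, 115 and 129 CPM with CAP (0.45 ± 0.05, adjusted p = 2.47e-08).

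PSMB6, the caspase-like subunit, had 151, 152 and 146 CPM in untreated Cal27 and 112, 109 and 109 CPM with CAP (-0.44 ± 0.04). In A375 it had 64.5, 59.2 and 65.3 CPM untreated and 86.6, 78.2 and 83.1 CPM with CAP (0.39 ± 0.05), and in Hth83 95.9, 85.6 and 81.9 CPM untreated and 107, 102 and 104 CPM with CAP (0.24 ± 0.06). In Fadu the groups overlapped, at 109, 103 and 105 CPM untreated and 123, 108 and 114 CPM with CAP (0.12 ± 0.04, adjusted p = 0.0124). That call was lost with DESeq2 (adjusted p = 0.0518), without untreated replicate 2 (0.0653) and without CAP replicate 1 (0.221).

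PSMB7, the trypsin-like subunit, had 383, 393 and 374 CPM in untreated Cal27 and 299, 289 and 295 CPM with CAP (-0.38 ± 0.03). In A375 it had 202, 213 and 204 CPM untreated and 236, 223 and 230.0 CPM with CAP (0.15 ± 0.04), the smallest rise of the ring in that line. In Fadu it had 113, 109 and 109 CPM untreated and 144, 138 and 139 CPM with CAP (0.34 ± 0.04), and in Hth83 191, 189 and 196 CPM untreated and 221, 214 and 240.3 CPM with CAP (0.23 ± 0.05). All of these passed, and no groups overlapped, but the A375 call of PSMB7 was lost on TPM (0.06, adjusted p of 0.24 to 0.346), as were the Cal27 calls of PSMB1, PSMB2 and PSMB5. PSMB2, a beta subunit without a proteolytic site, rose in A375 from 152, 149 and 151 CPM to 238, 221 and 235 CPM (0.62 ± 0.04, adjusted p = 2.55e-14), and its values in Fadu, 148, 156 and 149 CPM against 152, 142 and 139.9 CPM, overlapped (adjusted p = 0.154).

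The 3 inducible catalytic subunits all fell in Cal27 and Fadu and all rose in Hth83, whereas in A375 only PSMB8 passed. PSMB8 had 178, 172 and 156 CPM in untreated Cal27 and 115, 115 and 107 CPM with CAP (log2 fold change -0.59 ± 0.05, adjusted p = 6.92e-12). In Fadu it had 63, 68.2 and 62.6 CPM untreated and 42.5, 44.2 and 43.3 CPM with CAP (-0.58 ± 0.05, adjusted p = 1.06e-16). These falls, to 0.666 and 0.671 of the untreated level, left no overlap between groups, and the test of their difference between lines did not pass (Cal27 minus Fadu -0.03 ± 0.08 SE, adjusted p = 0.886).
In Hth83 PSMB8 had 36.5, 36.9 and 34 CPM untreated and 46.1, 46.6 and 44.6 CPM with CAP (0.35 ± 0.07, adjusted p = 3.53e-05). In A375 it had 28.2, 26.3 and 25.1 CPM untreated and 28.6, 29.7 and 33.5 CPM with CAP (0.21 ± 0.07, adjusted p = 0.0161), a call that was lost without untreated replicate 3 (adjusted p = 0.0802), without CAP replicate 3 (0.171), with library size as the scale (0.119) and on TPM (0.334 to 0.479).

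PSMB9, the inducible counterpart of PSMB6, had 86.4, 91.8 and 89.6 CPM in untreated Cal27 and 52.4, 56 and 57.1 CPM with CAP (-0.69 ± 0.05, adjusted p = 5.94e-13). In Fadu it had 26.9, 25.1 and 28.8 CPM untreated and 18.5, 16.1 and 16 CPM with CAP (-0.68 ± 0.08, adjusted p = 7.15e-12). These falls were to 0.618 and 0.626 of the untreated level, with no overlap between groups.
In A375 all 3 CAP libraries of PSMB9 (10.6, 10.6 and 9.91 CPM) lay below the untreated ones (11.9, 11.9 and 11.8 CPM), but the difference of -0.20 ± 0.10 did not pass (adjusted p = 0.0891), though it did on TPM (0.0097 to 0.0189), with library size as the scale (0.021) and in the fit of all libraries (0.0348). In Hth83 PSMB9 had 7.63, 5.95 and 6.15 CPM untreated and 9.05, 7.99 and 8.43 CPM with CAP (0.37 ± 0.13, adjusted p = 0.0217). That rise did not pass with DESeq2 (0.0504) or without untreated replicate 2 (0.115), untreated replicate 3 (0.081) or CAP replicate 1 (0.0982).

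PSMB10, the inducible counterpart of PSMB7, showed the largest fall of any member in Fadu, from 16.8, 17 and 15 CPM untreated to 6.83, 5.54 and 5.05 CPM with CAP (-1.49 ± 0.11, adjusted p = 9.28e-22), 0.355 of the untreated level. In Cal27 it fell from 23.1, 20.5 and 22.1 CPM to 13.3, 13.8 and 13.3 CPM (-0.70 ± 0.08, adjusted p = 2.9e-08). The fall in Fadu was larger than that in Cal27 (difference 0.78 ± 0.16, adjusted p = 8.44e-05).
In Hth83 PSMB10 had 4.45, 5.17 and 4.88 CPM untreated and 5.69, 6.57 and 6.49 CPM with CAP (0.37 ± 0.15, adjusted p = 0.0369), a call lost with DESeq2 (0.0786) and without untreated replicates 1 (0.136) or 3 (0.0671) or CAP replicates 2 (0.0959) or 3 (0.0997). In A375 its 2.85, 3.05 and 2.64 CPM untreated and 3.84, 2.85 and 3.06 CPM with CAP overlapped (adjusted p = 0.422). PSMB10 shares 34.8% of its exon bases with an overlapping gene on the same strand, which held 33 to 87 counts per library against 79 to 646 for PSMB10.

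**Figure D3:**
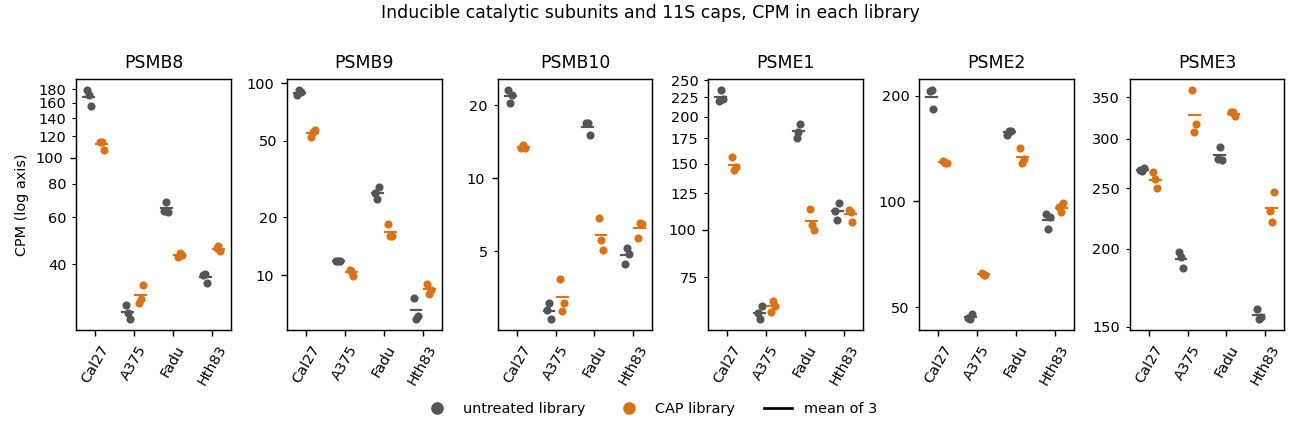
CPM in each library (log axes, scaled within a line) of the inducible catalytic subunits and the 11S caps, untreated in grey and CAP in orange, with bars at the means of 3 libraries. In Cal27 and Fadu every CAP library of PSMB8, PSMB9, PSMB10, PSME1 and PSME2 lies below every untreated one, and PSME3 lies above in A375, Fadu and Hth83.

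The 11S caps divided by type. PSME1 and PSME2, which form PA28 in the cytoplasm, both fell in Cal27 and Fadu, while PSME3, which forms a separate nuclear cap, rose in A375, Fadu and Hth83 and did not pass in Cal27. PSME1 had 219.6, 235 and 223 CPM in untreated Cal27 and 157, 144 and 147 CPM with CAP (-0.60 ± 0.04, adjusted p = 1.11e-13). In Fadu it had 175, 182 and 192 CPM untreated and 114, 103 and 100.1 CPM with CAP (-0.79 ± 0.04, adjusted p = 5.33e-28), the smallest p-value of any member in that line. In A375 (60.3, 58.2 and 62.7 against 60.6, 65 and 62.8 CPM) and Hth83 (113, 106 and 118 against 113, 112 and 105 CPM) the groups overlapped, with adjusted p of 0.35 and 0.683.

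PSME2 had 206, 207 and 184 CPM in untreated Cal27 and 131, 128 and 128 CPM with CAP (-0.62 ± 0.04, adjusted p = 2.03e-13). Its fall in Fadu was smaller, from 154, 158 and 159 CPM to 142, 129 and 132 CPM (-0.23 ± 0.04, adjusted p = 2.95e-07), and the difference from Cal27 passed (-0.41 ± 0.06, adjusted p = 4.54e-07). In A375 PSME2 rose from 46.5, 46.3 and 47.8 CPM to 62.7, 61.8 and 61.6 CPM (0.40 ± 0.05, adjusted p = 5.65e-08). PSME1 and PSME2, partners in one ring, were thus called together in Cal27 and Fadu but not in A375. In Hth83 PSME2 had 91.9, 83.5 and 90 CPM untreated and 96.3, 93.2 and 98.8 CPM with CAP, with an adjusted p of 0.0594 that became 0.042 without CAP replicate 2, 0.00721 with library size as the scale and 0.0152 to 0.0309 on TPM.

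PSME3 rose in A375 from 197, 194 and 186 CPM to 359, 307 and 316 CPM (0.76 ± 0.04, adjusted p = 1.56e-13), the largest log2 fold change of any member in that line. It rose in Hth83 from 160.3, 154 and 155 CPM to 230.0, 221 and 247 CPM (0.57 ± 0.05, adjusted p = 2.19e-11) and in Fadu from 279, 291 and 278 CPM to 331, 331 and 326 CPM (0.22 ± 0.03, adjusted p = 6.65e-09). The groups did not overlap in these lines. In Cal27 it had 268, 266 and 269.7 CPM untreated and 265, 259 and 251 CPM with CAP (-0.05 ± 0.04, adjusted p = 0.238), and there its sign turned on TPM, where it rose by 0.18 (adjusted p = 0.00517 to 0.0106).

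All 6 ATPases of the 19S base fell in Cal27 and rose in A375 and Hth83, and in Fadu 4 rose while PSMC1 and PSMC6 fell. PSMC3, an ATPase of this ring, had the smallest interaction p-value of all members. It fell in Cal27 from 293, 293 and 276 CPM to 213, 197 and 198 CPM (-0.51 ± 0.04, adjusted p = 1.95e-12) and rose in A375 from 129, 129 and 127 CPM to 202, 189.9 and 195 CPM (0.61 ± 0.04, adjusted p = 3.62e-14). It rose in Hth83 from 203, 189 and 202 CPM to 289, 278 and 289.8 CPM (0.53 ± 0.05) and in Fadu from 157 to 164 CPM untreated to 194 to 201 CPM with CAP (0.31 ± 0.04). No groups overlapped. PSMC4, another ATPase, fell in Cal27 from 181, 184 and 175 CPM to 135, 139 and 135 CPM (-0.40 ± 0.04, adjusted p = 5.06e-10). It rose in A375 from 159, 165 and 166 CPM to 255, 241 and 238 CPM (0.58 ± 0.04), in Fadu from 107, 106 and 102 CPM to 137, 129 and 139 CPM (0.36 ± 0.04) and in Hth83 from 74.7, 69.6 and 73.5 CPM to 98.7, 90.8 and 104 CPM (0.43 ± 0.06). On TPM the calls of PSMC1, PSMC2 and PSMC6 in Cal27 were lost. In Fadu the call of PSMC6 was lost with library size as the scale (adjusted p = 0.797) and on TPM (0.103 to 0.178). It was also lost there without untreated replicate 2 (0.0575) or 3 (0.0501). The exons of PSMC1 overlap those of NRDE2 on the opposite strand over 75.8% of their bases, and no source used here says whether the counting used strand.

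All 11 non-ATPase subunits fell in Cal27 and rose in A375, 9 of 11 rose in Hth83 with PSMD4 and PSMD8 not passing, and in Fadu 4 rose, PSMD1 fell and 6 did not pass. On TPM the Cal27 calls of PSMD1, PSMD2, PSMD4, PSMD6, PSMD7, PSMD11, PSMD12 and PSMD14 were lost, with PSMD1, PSMD2, PSMD11 and PSMD12 above 0. PSMD1, a scaffold of the base, was the member with the smallest p-value in Hth83, where it rose from 103, 108 and 96.5 CPM to 164, 173 and 176 CPM (0.74 ± 0.05, adjusted p = 2.34e-13). It rose in A375 from 133, 133 and 122 CPM to 194, 192 and 183 CPM (0.55 ± 0.04) and fell in Fadu from 176, 179 and 171 CPM to 149, 149.9 and 148 CPM (-0.24 ± 0.04, adjusted p = 4.2e-08). In Cal27 its fall was slight, from 194, 179 and 185 CPM to 169, 179 and 171 CPM (-0.10 ± 0.04, adjusted p = 0.0323). That call was lost without untreated replicate 1 (0.238) or CAP replicates 1 (0.0854) or 3 (0.116), and the sign turned on TPM.

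PSMD11, a lid subunit, rose in A375 from 142, 145 and 139 CPM to 229, 212 and 217 CPM (0.63 ± 0.04, adjusted p = 2.36e-14) and in Hth83 from 119.6, 115 and 116 CPM to 175, 170.0 and 183 CPM (0.59 ± 0.05). In Fadu its 195, 193 and 191 CPM untreated and 186, 187 and 184 CPM with CAP did not pass (adjusted p = 0.157). PSMD2, the other base scaffold, rose in Fadu from 355, 359 and 349.6 CPM to 468, 464 and 459 CPM (0.39 ± 0.03, adjusted p = 4.38e-20), while PSMD1 fell there. PSMD2 also rose in Hth83 from 723, 676 and 672 CPM to 981, 977 and 1017 CPM (0.52 ± 0.04). PSMD8, another lid subunit, rose in Fadu from 140.4, 135 and 134 CPM to 188, 179.9 and 185 CPM (0.43 ± 0.04, adjusted p = 3.28e-18) and overlapped in Hth83 (adjusted p = 0.13).

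The separation of inducible from other members was widest in Fadu. There the 5 inducible members all fell with a median of -0.68, while of the 32 others 17 rose, 4 fell and the median was 0.17. In Cal27 both sets fell, with medians of -0.62 (5 of 5) and -0.30 (28 of 32). In A375 2 of the 5 and 31 of the 32 rose, with medians of 0.18 and 0.44, and in Hth83 3 of the 5 and 27 of the 32, with medians of 0.35 and 0.27. Of all genes tested, 26.3% rose and 27% fell in Fadu, and 23.2% fell in Cal27. In A375 25.7% of all genes rose, and in Hth83 25.9%. The call of PSMB8 in A375 was lost in 6 of 17 alternatives. Those of PSMB9 and PSMB10 in Hth83 were lost in 5 and 6 of 17. With DESeq2, 1 of the 5 rose in Hth83. With library size as the scale, which moved the median over all genes in Fadu from 0.01 to 0.11, the 37 members there divided into 22 that rose and 7 that fell, and the 5 inducible members still all fell.

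The ratio of an inducible subunit to the constitutive subunit it replaces is taken within a library and does not depend on scaling. It is given as the ratio of counts per exon base, and its change was tested by an exact two-sided permutation test over 6 libraries, for which 0.1 is the smallest possible p. PSMB10/PSMB7 in Fadu was 0.144, 0.149 and 0.133 untreated and 0.0459, 0.0388 and 0.0351 with CAP, a difference of -1.84 on the log2 scale. PSMB8/PSMB5 in Fadu was 0.375, 0.429 and 0.393 untreated and 0.22, 0.242 and 0.225 with CAP (-0.80), and PSMB9/PSMB6 was 0.116, 0.114 and 0.13 untreated and 0.0708, 0.0703 and 0.0662 with CAP (-0.80). In Fadu each of the 3 ratios was lower in 3 of 3 CAP libraries than in any untreated one, and each reached the smallest p of 0.1 (0.171 after adjustment over the 12 ratios).

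The other lines differed by ratio. In A375 PSMB8/PSMB5 was 0.214, 0.207 and 0.203 untreated and 0.14, 0.163 and 0.178 with CAP (-0.38), and PSMB9/PSMB6 was 0.087, 0.0945 and 0.0853 untreated and 0.0579, 0.0637 and 0.0562 with CAP (-0.59), both at p = 0.1 by the exact test. PSMB10/PSMB7 in A375, at 0.0136, 0.0138 and 0.0124 untreated and 0.0157, 0.0123 and 0.0128 with CAP, overlapped (0.03, exact p = 0.9). In A375 PSMB5 and PSMB6 rose by 0.59 and 0.39, while PSMB8 rose by 0.21 and PSMB9 did not pass.
In Cal27 PSMB9/PSMB6 was 0.269, 0.285 and 0.289 untreated and 0.22, 0.243 and 0.246 with CAP (-0.25, exact p = 0.1), PSMB10/PSMB7 was lower by a like amount (-0.32, exact p = 0.1) and PSMB8/PSMB5, at 0.594, 0.58 and 0.501 against 0.462, 0.505 and 0.441, overlapped (-0.25, exact p = 0.2). In Hth83 all 3 ratios overlapped, with log2 differences of -0.09, 0.13 and 0.14 (exact p of 0.4, 0.2 and 0.3). Of the 12 ratios, 7 did not overlap between groups, all of them lower with CAP. Among single genes tested, groups did not overlap for 9158 of 17371 in Cal27 and 11353 of 19604 in A375. In Fadu this held for 11223 of 19152 genes and in Hth83 for 9876 of 17279. The count of 7 among 12 ratios is near these shares, which are of single genes and not of ratios.

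**Figure D4:**
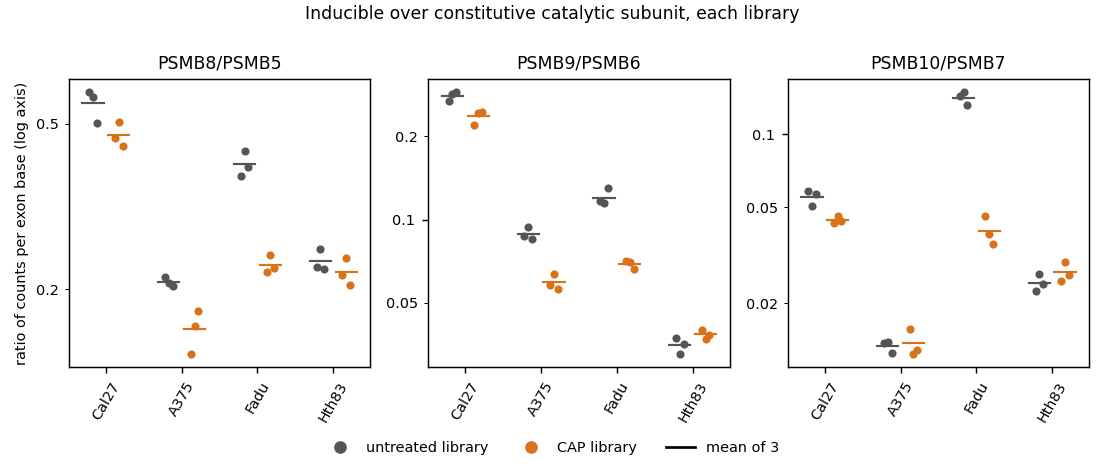
Ratio of counts per exon base of each inducible to its constitutive catalytic subunit in every library (log axes), untreated in grey and CAP in orange, with bars at the means of 3 libraries. The CAP libraries lie below the untreated ones for all 3 ratios in Fadu, where PSMB10/PSMB7 goes from 0.133 to 0.149 down to 0.0351 to 0.0459, and overlap them for all 3 in Hth83.

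The effect of CAP on the members differed between lines when this was tested directly. In the fit of all libraries all 37 had a line by treatment interaction (edgeR, adjusted p under 0.05), against 56.9% of all genes tested. The effect was lower in Cal27 than in A375 for 35 members and higher for 0, where 35.5% of genes differed, and lower in Cal27 than in Hth83 for 34 and higher for 0, where 35% did. Cal27 and Fadu differed for 29 members (27 lower and 2 higher in Cal27, 38.4% of genes), A375 and Fadu for 27 (25 higher and 2 lower in A375, 36%) and Fadu and Hth83 for 22 (3 higher and 19 lower in Fadu, 35.7%). A375 and Hth83 differed for fewer members, 6 higher and 2 lower in A375, where 27.3% of all genes differed.

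Genes that act with the proteasome were taken from lists of related genes, whose counts are to be read against the shares of all genes that rose and fell, 21.9% and 23.2% in Cal27, 25.7% and 24.8% in A375, 26.3% and 27% in Fadu, and 25.9% and 24.2% in Hth83. The remaining subunits and caps had 7 of 9 members tested, since PSMA8 and PSMB11, subunits of the testis and the thymus, had too few counts. Of these 7, 2 rose and 3 fell in Cal27, 7 rose in A375, 2 rose and 2 fell in Fadu, and 1 rose and 1 fell in Hth83. ADRM1, a ubiquitin receptor of the 19S particle, fell in Cal27 from 214, 213 and 203 CPM to 139.7, 132 and 139 CPM (-0.62 ± 0.04, adjusted p = 3.4e-14). It rose in A375 from 72.4, 72.2 and 75.4 CPM to 132, 113 and 122 CPM (0.74 ± 0.05, adjusted p = 1.18e-13), by 0.24 ± 0.05 in Fadu and by 0.42 ± 0.05 in Hth83. Its signs were those of the 27 members that fell in Cal27 and rose in A375 and Hth83.

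Of 6 assembly factors, 5 fell in Cal27, 2 rose and 2 fell in A375, 5 rose and 1 fell in Fadu, and 4 rose in Hth83, where 23.2% of all genes fell in Cal27 and 25.7%, 26.3% and 25.9% rose in A375, Fadu and Hth83. POMP, which is needed to assemble the core, fell in Cal27 from 129.6, 134 and 137 CPM to 101, 114 and 115 CPM (-0.28 ± 0.05; not called on TPM, -0.05 with adjusted p of 0.612 to 0.679) and rose in A375 from 115, 113 and 118 CPM to 187, 175 and 189 CPM (0.67 ± 0.04, adjusted p = 1.1e-14). It also rose in Hth83 (0.50 ± 0.06) and Fadu (0.29 ± 0.05). Of 10 ubiquitin enzymes and shuttles that bind the proteasome, 2 rose and 4 fell in Cal27, 6 rose and 2 fell in A375, 1 rose and 6 fell of 9 tested in Fadu, and 5 rose and 2 fell in Hth83. Of the 4 ubiquitin genes, 2 fell in Cal27, 4 rose in A375, 2 rose and 2 fell in Fadu, and 1 rose and 1 fell in Hth83.

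Of 7 genes in the transcriptional control of the constitutive subunits, 1 rose and 4 fell in Cal27, 3 rose and 1 fell in A375, 3 rose and 3 fell in Fadu, and 1 rose and 4 fell in Hth83, lines in which 45.1%, 50.5%, 53.3% and 50.1% of all genes passed in either direction. NFE2L1 mRNA fell in Hth83 from 423, 397 and 451 CPM to 182, 188 and 187 CPM (-1.19 ± 0.05, adjusted p = 7.4e-19). It fell in Fadu from 361, 349.6 and 358 CPM to 292, 273 and 277 CPM (-0.34 ± 0.03, adjusted p = 3.36e-16) and in Cal27 by 0.24 ± 0.03 on the log2 scale, and did not pass in A375 (adjusted p = 0.794). On TPM the Cal27 call was lost (adjusted p of 0.859 to 0.889), and in A375 NFE2L1 was lower past the threshold with library size as the scale (0.0369) and on filtered TPM (0.0344 to 0.0346). The NFE2L1 protein is known to be controlled after translation, which mRNA counts do not show, and its part in the changes of the members was not tested. NFE2L2, a related factor of the antioxidant response, fell in all 4 lines, by 0.44 ± 0.04 in Cal27, 0.17 ± 0.05 in A375, 0.83 ± 0.04 in Fadu and 0.84 ± 0.05 in Hth83, although its groups overlapped in A375 (137, 132 and 139 against 134, 111 and 118 CPM) and the call there was lost without CAP replicate 2 (adjusted p = 0.0594).

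Of 9 genes in the interferon control of the inducible subunits, 5 fell in Cal27, 7 fell in Fadu, 2 rose and 1 fell in A375, and 1 rose and 5 fell in Hth83, against 45.1% of all genes that passed in Cal27, 53.3% in Fadu, 50.5% in A375 and 50.1% in Hth83. IRF1, a factor that interferon induces and that binds response elements such as those shown above, fell in Cal27 from 88.1, 87.3 and 88.6 CPM to 57.9, 55.7 and 59.5 CPM (-0.61 ± 0.05) and in Fadu from 60.4, 62.9 and 57.3 CPM to 30.9, 25.9 and 27.7 CPM (-1.10 ± 0.06, adjusted p = 1.67e-29). It also fell in Hth83, from 32.9, 27.7 and 35.4 CPM to 22.8, 19.8 and 25.2 CPM (-0.50 ± 0.09, adjusted p = 5.65e-05). The Hth83 call was lost on TPM (adjusted p = 0.051 to 0.0995). In A375 its 7.51, 7.41 and 5.94 CPM untreated and 8.82, 7.75 and 7.93 CPM with CAP did not pass (adjusted p = 0.131). The part of IRF1 in the changes of the inducible members was not tested.

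Of 9 genes that supply peptides to MHC class I, 1 rose and 5 fell in Cal27, 3 rose and 2 fell in A375, 2 rose and 6 fell in Fadu, and 5 rose and 3 fell in Hth83, where the shares of all genes that passed were 45.1%, 50.5%, 53.3% and 50.1%. TAP1, the neighbour of PSMB9, fell in Cal27 from 183, 203 and 183 CPM to 115, 122 and 124 CPM (-0.66 ± 0.04, adjusted p = 9.99e-14) and in Fadu from 62.6, 68.9 and 60.7 CPM to 49.5, 45.4 and 49.9 CPM (-0.41 ± 0.05). It rose in Hth83 from 44.1, 41.8 and 41.5 CPM to 51.2, 50.4 and 47.8 CPM (0.23 ± 0.06, adjusted p = 0.00281) and in A375 from 35, 37.4 and 38.4 CPM to 44.5, 40.1 and 40.5 CPM (0.18 ± 0.06, adjusted p = 0.0163). The A375 call was lost without untreated replicate 1 (0.108), without CAP replicate 1 (0.0762), with library size as the scale (0.147) and on TPM (0.273 to 0.397). In A375 TAP1 and PSMB9, on either side of the same stretch of sequence, lay on opposite sides of 0.

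**Figure D5:**
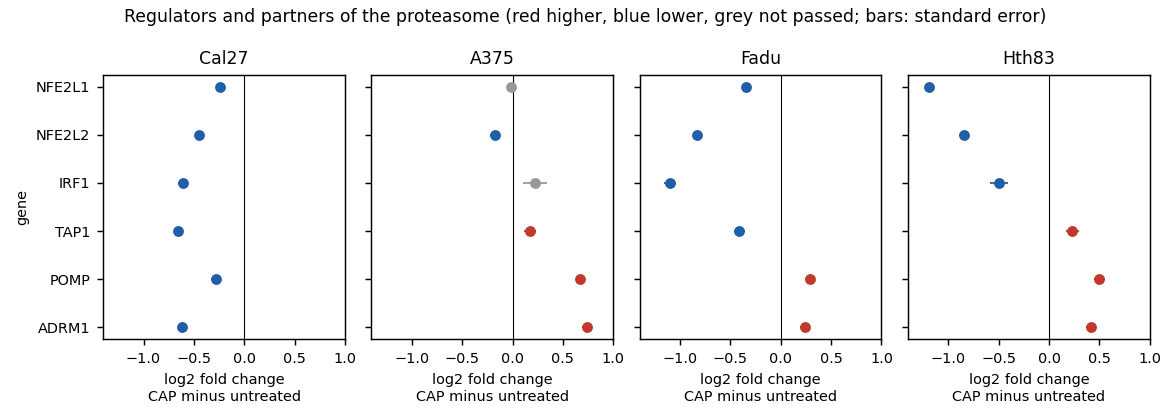
Log2 fold change (CAP minus untreated) with standard error, from edgeR on 3 against 3 libraries, of regulators and partners of the proteasome in the 4 lines, with red for higher, blue for lower and grey for not passed. IRF1 lies left of 0 in Cal27, Fadu and Hth83, NFE2L1 is lowest in Hth83 at -1.19, and POMP and ADRM1 are left of 0 in Cal27 only.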

How the data were processed

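RNA from 24 libraries was read as 4 deposited tables of whole-number counts, 1 per line, and 4 of TPM, made by the authors. Per the submitters' processing notes, HISAT2 and the GRCh38 build were used. The counting tool, the annotation, the HISAT2 version and any use of strand are not stated in the sources used here. The deposited TPM values divide counts by the genomic span of a gene: for 100% of 3031 genes the implied length matched the span in GENCODE 29 within 1%, so TPM levels are not compared between genes here, and levels are given as CPM per kb of exon (union of exons in GENCODE 29). TPM served only as an alternative.

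Symbols were found for 61415 of 61533 IDs, and 118 had none. Counts were filtered in each line (edgeR filterByExpr, minimum count 10 and total 15), scaled by TMM and tested with edgeR 4.0.16 (quasi-likelihood, robust; R 4.3.3), with Benjamini-Hochberg adjustment over all genes tested and a threshold of 0.05. Differences between lines came from 1 edgeR fit of all 24 libraries. Ratios were tested by exact permutation. The scripts were tested on simulated data. Alternatives were RLE and library size scaling, no count filter or a CPM of 1 in 3 libraries, DESeq2 1.42.0, edgeR without robust estimation, the joint fit, limma 3.58.1 on log2(TPM + 1) and log2(TPM + 0.1) with a TPM of 1 in 3 libraries or no filter, removal of a loess trend (span 0.5) with gene length, a replicate block and leaving out each library. The trend with exon length, the counts without PSMA1, PSMA2 and PSMA6, and ratios per exon base were chosen after seeing the data. Same-numbered libraries did not deviate together (correlations -0.03 to 0.05, 0 of 3 pairs over 0.1 in each line). This cannot show that the samples were unpaired, and the replicate block was run as an alternative. Sampling noise does not account for the difference between replicates (chi-square per degree of freedom 2.96 to 8.70), and each counted as 1 sample.

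The members and lists were chosen with earlier results of these data known. Values by library are given for the 5 inducible members, PSMB5, PSMB6, PSMB7 and PSME3, and for members with one of the 3 smallest p-values of a direction in a line or one of the 5 smallest interaction p-values, these further members in at least 1 line each. The rule also called for the 2 smallest p-values of each list of related genes; in their place 6 related genes were picked for their roles, and other members were named, after their values were seen. RefSeq promoters (GRCh38.p14) matched 32 of 37 members. 1 gene of the interferon list is not reported here and is not in its counts.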

Additional observations from a re-analysis of the deposited data

Results flagged for a closer look

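The response to CAP differed between lines for all 37 members, by an edgeR interaction test over the 24 libraries with Benjamini-Hochberg adjustment. The smallest adjusted p-values were 3.81e-23 for PSMC3, 2.89e-20 for PSMD11, 4.99e-20 for PSMD1, 8.69e-19 for PSMC4 and 1.27e-18 for PSMA7, which fell in Cal27 and rose in A375 and Hth83. In Cal27 the call of PSMD1 was lost without untreated replicate 1 (0.238), in the block (0.0547) and in other settings, and PSMD1 and PSMD11 were above 0 on TPM (0.12 and 0.028). Among the inducible members the adjusted p was 3.9e-16 for PSMB8, 9.11e-11 for PSMB9, 5.96e-13 for PSMB10, 3.31e-16 for PSME1 and 7.92e-18 for PSME2, which fell in Cal27 and Fadu. Of all genes tested 56.9% passed the same test.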

How the results depend on the processing

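Of 246 alternative values of the counts, medians and ratios, 222 kept their reading by a lenient rule. A count could change moderately, a median could shift by less than the members' median standard error, and a ratio had only to keep its sign. Thus in Fadu 22 members that rose with library size as the scale, against 17, counted as kept. In Cal27 the count that rose, 0, became 1 with library size as the scale, 2 on log2(TPM + 1), 2 on log2(TPM + 0.1) and 1 on TPM with no filter, and 0 to 1 with 1 library left out. The 33 that fell in Cal27 became 18, 18 and 16 on those TPM settings. In A375 the count that fell, 0, became 1 (PSMB9) with library size, in the joint fit and on all 3 TPM settings. The median of -0.35 in Cal27 became -0.27 with library size and -0.11 on TPM. The median of 0.40 in A375 became 0.33 and 0.30 on these, and 0.48 with a trend with genomic length or with exon length removed. The median of 0.08 in Fadu became 0.19 with library size and 0.022 with the genomic trend removed, and that of 0.28 in Hth83 became 0.34 on TPM. The median of the members minus that of all genes was -0.348 in Cal27, 0.425 in A375, 0.072 in Fadu and 0.275 in Hth83. With library size it was -0.348, 0.425, 0.072 and 0.275 in these lines. On filtered log2(TPM + 1) it was -0.310, 0.380, 0.059 and 0.282. The cause of these shifts was not tested.

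With 1 library left out, 31 to 33 members fell in Cal27, 32 to 33 rose and 0 fell in A375, 16 to 20 rose and 8 to 11 fell in Fadu, and 28 to 32 rose and 0 fell in Hth83. The log2 difference of PSMB10/PSMB7 in A375, 0.03, ran from -0.078 to 0.095 and was -0.020 without untreated replicate 3. With PSMA1, PSMA2 and PSMA6 left out, 33 of 34 fell in Cal27. The 5 inducible members fell in Cal27 and Fadu under every alternative run.

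Log2 fold changes turned their sign as follows. In Cal27 with library size PSMA1 was at 0.0098 and PSME3 at 0.028. On log2(TPM + 1), filtered or not, PSMA1 was at 0.098, PSMA3 0.11, PSMB2 0.037, PSME3 0.18, PSMD1 0.12, PSMD2 0.056, PSMD11 0.028 and PSMD12 0.063, and on log2(TPM + 0.1) PSMA1 was at 0.15, PSMA3 0.11, PSMB2 0.037, PSMD1 0.13, PSMD2 0.057, PSMD11 0.028 and PSMD12 0.064. In A375 PSME1 was at -0.013 with library size and -0.035 on TPM, and NFE2L1 at 3.2e-05 with DESeq2. In Fadu with library size PSMA5 was at 0.037, PSMB1 0.027, PSMB2 0.039, PSMD7 0.019 and PSMD11 0.045. In Hth83 PSME1 was at 0.020 with library size and 0.034 on TPM, and PSMA6 at 0.0028 on log2(TPM + 1) and 0.0026 on log2(TPM + 0.1). With 1 library left out, PSMA1 ran from -0.15 to 0.038 and PSMA6 from -0.032 to 0.18 in Cal27, NFE2L1 from -0.036 to 0.0069 in A375, and PSMA2 from -0.35 to 0.040, PSMA6 from -0.14 to 0.028 and PSME1 from -0.068 to 0.0069 in Hth83.

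With the replicate number as a block, 0 members rose and 32 fell in Cal27, 33 rose and 0 fell in A375, 17 rose and 9 fell in Fadu, 30 rose and 0 fell in Hth83, and 37 had an interaction and 37 differed between untreated lines. The block ended the call of PSMD1 in Cal27 (adjusted p = 0.0547).

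PSMA2 (40 to 212 counts per library), PSMB10 (79 to 646), PSMA6 (108 to 506), PSMB9 (179 to 2622) and PSMA1 (355 to 1606) had the lowest counts of the members, which limits their precision.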
